A study of Mus musculus with 64 samples.

Results

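Transcripts of 10 acute phase protein genes of the mouse (Saa1, Saa2, Saa3, Saa4, Orm1, Orm2, Orm3, Hp, Lcn2 and Apcs) were followed through 64 RNA-seq libraries. The genes were taken by symbol, and all 10 were found among the 23338 genes counted in each library. All animals and lines were C57BL/6. They comprised 12 eight-cell embryos taken singly at 2.5 dpc, 4 lines of embryonic stem (ES) cells derived from such embryos and grown with 2 inhibitors (2i) and LIF, 24 fetal livers from 17.5 dpc and 24 adult livers from mice 15 to 20 weeks old. Each of these 4 stages was split evenly by sex, giving 6, 2, 12 and 12 libraries of each sex. No group had been given a treatment or carried an engineered allele, every liver and embryo came from 1 animal, and the sources used here do not tie single livers to litters or lanes. The design asks whether a transcript differed between males and females at each stage.

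Acute phase proteins are plasma proteins whose production by hepatocytes changes when interleukin-6, interleukin-1 and related cytokines signal infection or injury, largely through STAT3, NF-kB and C/EBP factors. Serum amyloid A proteins travel on lipoprotein particles, orosomucoids (alpha-1-acid glycoproteins) bind small lipophilic molecules, haptoglobin captures free haemoglobin, lipocalin 2 binds bacterial siderophores, and serum amyloid P component is a pentraxin that binds amyloid and microbial surfaces. Saa1 and Saa2 are strongly inducible in liver, whereas Saa4 is made constitutively.

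Levels are given as CPM, the reads of a gene per 1000000 reads assigned to genes in that library, with no further scaling. Library totals ran from 1567583 to 10386931 reads, so that 3 reads, taken here as the detection floor, correspond to 0.289 to 1.91 CPM, the highest floor being in an adult liver. Markers of hepatocytes summed to between 30508 and 40572 CPM in fetal livers and between 51963 and 68484 CPM in adult livers, against at most 111 CPM in embryos and 6.39 CPM in ES lines. Fetal livers also held 4795 to 7113 CPM of 6 erythroid markers and 2021 to 3976 CPM of 10 neutrophil granule genes, which summed to at most 8.08 CPM in any adult liver. Fewer cells of a type and less RNA per cell cannot be told apart in such whole-tissue libraries. In fetal males 39.9% to 49.0% of uniquely placed reads lay outside genes, and in fetal females 34.1% to 38.1%, so that this library property and sex cannot be told apart there. The libraries of fetal females 14, 21 and 22 stood apart, in that they carried 17.5, 9.41 and 108 CPM of 25 transcripts abundant in adult liver and at 0 in most fetal livers, against at most 1.53 CPM in the other 21. Female 14 had reads of only 6 of the 25, fewer than male 4 with 9, whereas female 21 had reads of 14 and female 22 of 21. The comparison of the stages and that of the fetal sexes were therefore also run without females 14, 21 and 22, and the interaction was not.

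**Figure D1:**
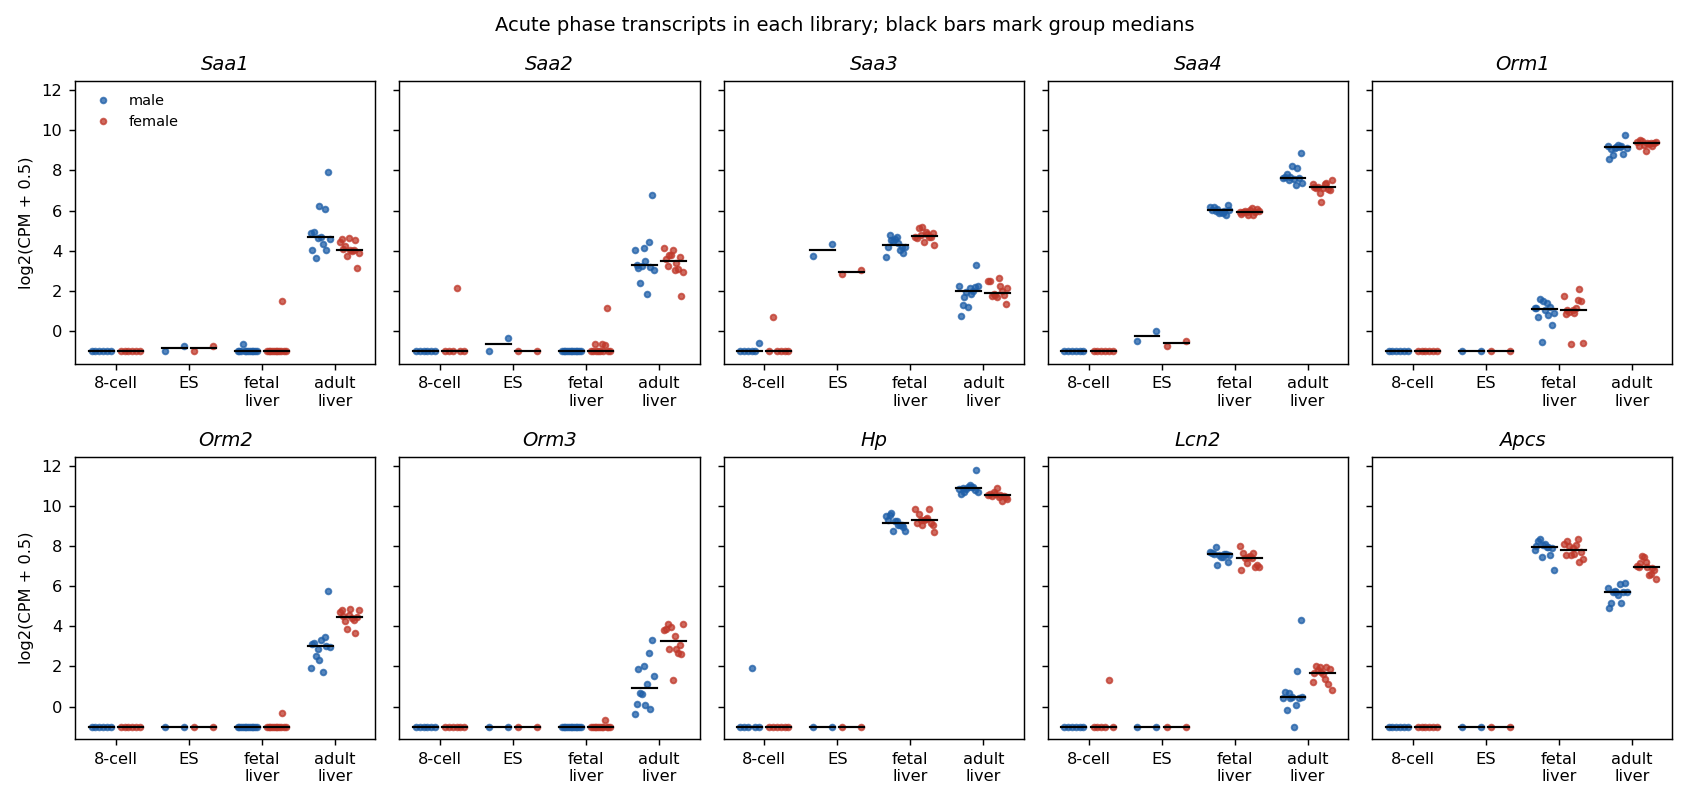
Level of each of the 10 transcripts in all 64 libraries, as log2(CPM + 0.5), by stage and sex. Each point is 1 library (blue male, red female) and black bars mark group medians. Saa1, Saa2, Orm2 and Orm3 sit near the bottom of the axis before adulthood, whereas Lcn2 is far lower in adult than in fetal liver.

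Across the 48 livers, all 10 genes passed the expression filter and all 10 differed between adult and fetal liver (edgeR quasi-likelihood test with sex as a covariate, adjusted p under 0.1 and absolute log2 above 0.5). Higher in adult liver were 7 (Saa1, Saa2, Saa4, Orm1, Orm2, Orm3, Hp), and higher in fetal liver were 3 (Saa3, Lcn2, Apcs), in a comparison where 67.2% of the 13026 genes tested were called, 31.8% higher in adult and 35.3% higher in fetal liver. The ranges of the 24 adult and 24 fetal livers did not overlap for the 7 genes higher in adult liver or for Saa3 and Lcn2, against 10.3% and 37.6% of all genes in these directions. The same 7 and 3 calls were obtained without fetal livers 14, 21 and 22. Fitted log2 values use TMM factors, whereas CPM do not: with library size alone the median log2 of all genes moved from -0.05 to -0.61, and the members kept their directions.

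Per kilobase of transcript, Hp was the most abundant of the 10 in both livers, with a median of 456 CPM per kb in fetal and 1221 in adult liver. In adult liver Orm1 followed at 774 CPM per kb, below Hp in all 24 livers, and next came Apcs and Saa4 at 78.9 and 77.9. The order of this pair differed by sex, since Apcs was the higher in 11 of 24 livers, all of them female. Saa1 (33.2 CPM per kb), Orm2 (16.8), Saa2 (15.9), Orm3 (7.38), Saa3 (6.16) and Lcn2 (1.89) completed the order. The ranges of each of these neighbours overlapped across livers. Within a liver, Saa4 was above Saa1 in 23 of 24, and Saa3 above Lcn2 in 23. Saa2 was above Orm3 in 20, Saa1 above Orm2 in 19, Orm3 above Saa3 in 14 and Orm2 above Saa2 in 10. In fetal liver the order was Hp, Apcs (250 CPM per kb), Lcn2 (197), Saa3 (43.2), Saa4 (29.6) and Orm1 (2.01), with medians of 0 for the other 4 genes. Among these, only Lcn2 with Saa3 and Saa4 with Orm1 were neighbours whose ranges were separate. Within a fetal liver, Hp was above Apcs in 24 of 24, Apcs above Lcn2 in 22 and Saa3 above Saa4 in 21.

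Before the liver, these transcripts were nearly absent. In eight-cell embryos Saa1, Saa4, Orm1, Orm2, Orm3 and Apcs had 0 reads in all 12 libraries. Each of the other 4 was found in 1 or 2 embryos: Saa2 at 3.90 CPM in female 10, Hp at 3.24 CPM in male 4, Lcn2 at 2.01 CPM in female 11, and Saa3 at 1.09 CPM in female 8 and 0.150 CPM (1 read) in male 6. No member passed the filter there, in a comparison of the sexes that called 0.264% of 9087 genes. The 4 ES lines had 0 reads of Orm1, Orm2, Orm3, Hp, Lcn2 and Apcs, at most 1 read of Saa1, at most 3 of Saa2 and 1 to 5 of Saa4. Saa3 was the exception, at 12.6 and 19.5 CPM in the male lines and 6.60 and 7.61 CPM in the female lines. Both male lines were above both female lines, a log2 (male/female) of 1.14 (SE 0.27, edgeR adjusted p = 0.0777), in a comparison that called 9.5% of 12678 genes and 3.42% as higher in males. The call was lost without female line 3 (adjusted p = 0.517) or female line 4 (adjusted p = 0.487), and each fit then assumed that the lone line varies like the male lines.

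Between the sexes, adult liver showed differences in both directions among the 10 genes. Of the 8 members that passed the filter, 2 were higher in males (Saa1 and Saa4) and 3 higher in females (Orm2, Orm3 and Apcs), beside 3.01% and 6.49% of the 10372 genes tested (9.5% in either direction). Saa2, Orm1 and Hp did not meet both thresholds, and Saa3 and Lcn2 were too low in adult liver to pass the filter. The 5 calls held when each of the 24 livers was left out in turn. Alignments set aside as not unique came to 42.2% to 61.1% in adult males and 32.7% to 43.2% in adult females, and the part of this library property in the sex differences of genes with near copies (Saa1, Orm2 and Orm3) was not tested. In fetal liver 6 members were tested and none was called, beside 4.64% of 12930 genes called, 3.81% higher in males and 0.828% higher in females (edgeR, with 1 of the 6 members at an unadjusted p under 0.05, and 0 called by DESeq2). The sex difference itself differed between adult and fetal liver for Saa4, Hp and Apcs (edgeR interaction, adjusted p under 0.1), 3 of 10 members beside 33.6% of all genes.

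**Figure D2:**
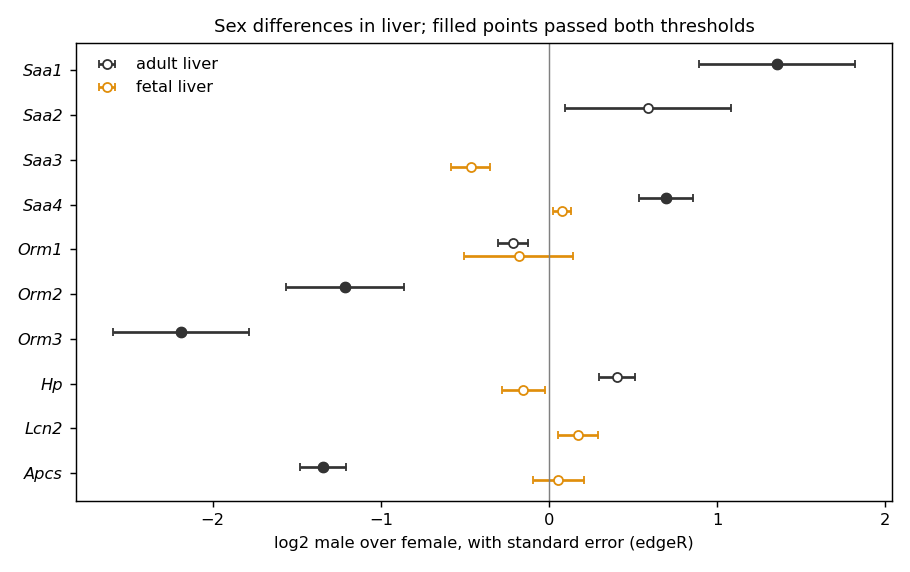
Log2 male over female with its standard error (edgeR) for the members tested in adult liver (black) and fetal liver (orange). Filled points passed both thresholds. In adult liver Saa1 and Saa4 lie to the right of 0 and Orm2, Orm3 and Apcs to the left, and no fetal point is filled.

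The 4 Saa genes lie in one cluster on chromosome 7 (GRCm38, from 46711998 at Saa3 to 46754313 at Saa2). Saa1 and Saa2 encode the inducible plasma forms, and are neighbours in opposite orientation, Saa1 at 46740497 to 46742980 on the minus strand and Saa2 at 46751790 to 46754313 on the plus strand. Their main transcripts (609 and 606 bases) were 94.4% identical, and 14.8% of the 50-base windows of Saa1 and 13.3% of those of Saa2 occurred unchanged in another gene of the families examined. Reads from such stretches cannot be placed uniquely, so the split between the pair is uncertain there. The similarity extends upstream, where the 250 bases before the RefSeq starts were 95.6% identical. The RefSeq start coincided with the GENCODE one for Saa1, Saa4 and Orm2, and lay 43 bases from it for Saa2, 24 for Saa3, 4 for Orm3, 13 for Apcs and 513 for Lcn2. Both windows are shown because this pair moved together between animals, with capitals marking matches on either strand to TTNNGNAA (C/EBP), GGG and CC with 5 bases of any kind between them (NF-kB), TTCNNNGAA (STAT) or TATAAA, Saa1 from chr7:46742981-46743230 (minus strand) and Saa2 from chr7:46751583-46751832 (plus strand).
Saa1: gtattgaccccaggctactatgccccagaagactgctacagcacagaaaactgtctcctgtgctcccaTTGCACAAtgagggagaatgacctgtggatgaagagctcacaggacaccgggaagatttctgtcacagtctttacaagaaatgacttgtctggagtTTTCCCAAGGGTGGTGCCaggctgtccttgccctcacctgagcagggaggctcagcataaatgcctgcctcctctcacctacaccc
Saa2: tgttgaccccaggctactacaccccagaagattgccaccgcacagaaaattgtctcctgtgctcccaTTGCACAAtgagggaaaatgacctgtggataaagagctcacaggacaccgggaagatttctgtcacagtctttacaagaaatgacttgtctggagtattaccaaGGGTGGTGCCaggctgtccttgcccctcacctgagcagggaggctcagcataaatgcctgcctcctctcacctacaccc
Saa1 held C/EBP matches that began 182 and 86 bases before the start, and an NF-kB match at 78 bases that directly followed the second. In Saa2 the C/EBP match at 183 bases and the NF-kB match at 79 bases were present, and the letters next to the latter did not match. Such letters are common: 36.8% of the 32851 promoter windows of the same length held a C/EBP match and 45.8% an NF-kB match. Neither window held the STAT or TATA letters, which occur in 7.02% and 12.4% of windows.

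Saa1 was an adult transcript in these livers. It ran from 8.42 CPM to 245 CPM in adult livers, with a median of 20.2, and 22 of 24 fetal livers had no read. All fetal livers together held 17 reads, of which 16 were in female 22, one of the 3 libraries set apart above. In that library Saa1 stood at 7.02% of the adult mean and Saa2 at 11.8%, against 0.818% for the 25 adult transcripts summed. Over pooled reads Saa1 was 283-fold higher in adult liver (95% counting interval 177 to 486), and 4149-fold without the 3 livers, where the single remaining fetal read leaves the interval at 745 to 163872. The fitted log2 was 8.41 (SE 0.48, edgeR adjusted p = 2.55e-21), and 10.35 (SE 0.56) without them. Saa2 ran from 2.81 to 110 CPM in adult livers, with a median of 9.65, and was 142-fold higher than in fetal liver (85.8 to 253), or 915-fold (253 to 7559) without the 3 livers. Intervals here and below cover counting error only.

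Saa1 was higher in adult males. Males ran from 11.9 to 245 CPM with a median of 24.8, and females from 8.42 to 23.98 CPM with a median of 16.1. The ranges overlapped, and 7 of the 12 males lay above the highest female, of which males 6, 9 and 11 had 68.1 CPM or more. The log2 (male/female) was 1.36 (SE 0.46, edgeR adjusted p = 0.0342), and 0.79 (SE 0.29, adjusted p = 0.0531) without male 11. Saa2 had a similar top but not the same middle: males ran from 3.07 to 110 CPM with a median of 9.18, and females from 2.81 to 17.1 CPM with a median of 10.7. Its log2 of 0.59 (SE 0.49, edgeR adjusted p = 0.420) did not pass, and turned to -0.07 without male 11.

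Saa4, the constitutive gene of the family, showed a tighter pattern. Fetal livers ran from 53.6 to 76.9 CPM with a median of 61.9, adult females from 85.3 to 185 CPM with a median of 142, and adult males from 155 to 472 CPM with a median of 198. Adult liver stood above fetal liver in every library, with a log2 of 2.09 (SE 0.10, edgeR adjusted p = 4.73e-25). Adult males were higher than females by a log2 of 0.69 (SE 0.16, edgeR adjusted p = 0.00237), although their ranges overlapped. In fetal liver the log2 (male/female) was 0.08 (SE 0.06), and the sex difference in adult minus fetal liver was 0.66 (SE 0.17, interaction adjusted p = 0.00291).

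Saa3, which is expressed by macrophages and other cells outside the hepatocyte as well as in liver, went the other way across stages. Fetal livers held 12.4 to 35.9 CPM with a median of 23.99, and adult livers 1.16 to 9.32 CPM with a median of 3.42, close to the floor. The log2 (adult/fetal) was -2.12 (SE 0.12, edgeR adjusted p = 2.53e-23). The sum of 7 macrophage markers was 626 to 943 CPM in fetal and 340 to 986 CPM in adult livers, whose ranges overlapped. The single markers went different ways. Emr1 (97.7 to 156 CPM in fetal, 24.4 to 78.7 in adult) and Marco (63.5 to 194, 2.91 to 32.3) were lower in every adult liver. Vsig4 (5.73 to 17.4, 21.8 to 83.0) was higher in every adult liver, and the ranges of the rest overlapped. Their part in the level of Saa3 was not tested. In fetal liver females ran from 18.98 to 35.9 CPM, with a median of 26.3, and males from 12.4 to 27.3 CPM, with a median of 19.1. That log2 (male/female) of -0.47 (SE 0.11, edgeR adjusted p = 0.00322) missed the fold threshold, and was -0.51 without fetal livers 14, 21 and 22, which met both thresholds. It was -0.09 (SE 0.23, adjusted p = 0.995) with the share of reads outside genes as a covariate, a share that does not overlap between the sexes.

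The 3 orosomucoid genes lie side by side on chromosome 4 (GRCm38), in the order Orm1 (63344560 to 63348163), Orm3 (63356162 to 63359511) and Orm2 (63362449 to 63365878), all on the plus strand. Transcripts of Orm1 and Orm2 were 91.0% identical, those of Orm2 and Orm3 88.5% and those of Orm1 and Orm3 86.5%. Windows of 50 bases found in another gene of the families made up 20.4% of Orm1, 22.7% of Orm2 and 3.59% of Orm3, so part of Orm1 and Orm2 could not be told apart by reads. Orm2 and Orm3 differed together between the sexes, and the 250 bases before their starts, 89.0% identical, are shown with the same marking, Orm2 from chr4:63362199-63362448 and Orm3 from chr4:63355908-63356157.
Orm2: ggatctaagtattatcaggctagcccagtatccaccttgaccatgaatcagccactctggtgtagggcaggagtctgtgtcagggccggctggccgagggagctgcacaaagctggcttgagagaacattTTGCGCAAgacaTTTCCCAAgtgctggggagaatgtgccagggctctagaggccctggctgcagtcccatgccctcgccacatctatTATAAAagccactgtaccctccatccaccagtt
Orm3: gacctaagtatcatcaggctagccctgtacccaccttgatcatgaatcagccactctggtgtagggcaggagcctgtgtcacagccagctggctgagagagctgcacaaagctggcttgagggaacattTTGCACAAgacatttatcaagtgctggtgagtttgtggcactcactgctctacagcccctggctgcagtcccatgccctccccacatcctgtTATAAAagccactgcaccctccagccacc
The TATA letters began 33 bases before the start in Orm2 and 29 bases before it in Orm3. A C/EBP match lay at 120 bases in Orm2 and at 121 bases in Orm3, and Orm2 held a further one at 108 bases. No NF-kB or STAT match was found in either window.

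Orm1 was, after Hp, the most abundant member in adult liver. Adult males ran from 382 to 864 CPM with a median of 568.1, and adult females from 501 to 737 CPM with a median of 660. Fetal livers held 0.138 to 3.75 CPM, a log2 (adult/fetal) of 9.09 (SE 0.14, edgeR adjusted p = 1.10e-46). The highest fetal value was again in female 22. The sex difference of -0.22 (SE 0.09, edgeR adjusted p = 0.0825) was under the fold threshold.

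Orm2 and Orm3 were almost without reads in fetal liver, with 2 reads of Orm2, both in female 22, and 1 read of Orm3, in female 21. Orm2 ran from 2.79 to 54.1 CPM in adult males with a median of 7.53, and from 12.2 to 28.6 CPM in adult females with a median of 21.7. The ranges overlapped through male 11 alone, since the next highest male had 10.7 CPM. The log2 (male/female) was -1.21 (SE 0.35, edgeR adjusted p = 0.0128), and -1.69 (SE 0.18, adjusted p = 1.42e-08) without that liver. Orm3 ran from 0.279 to 9.32 CPM in males with a median of 1.39, and from 1.97 to 17.1 CPM in females with a median of 9.34. Its log2 of -2.19 (SE 0.41, edgeR adjusted p = 0.000228) was the largest sex difference of the 8 genes tested, although several male values were at or under the floor. Without fetal livers 14, 21 and 22 no fetal read remained, so that adult liver was at least 662-fold higher for Orm2 and at least 265-fold higher for Orm3, taking a floor of 3 reads over the group. A sex difference in fetal liver could not be measured for either gene at this depth.

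Hp (chromosome 8, 109575128 to 109579172, minus strand) was plentiful at both ages. Fetal livers ran from 413 to 921 CPM with a median of 614, and adult livers from 1219 to 3611 CPM with a median of 1643. The 2 ranges were separate, with a log2 of 2.04 (SE 0.10, edgeR adjusted p = 3.40e-25). Adult males ran from 1526 to 3611 CPM with a median of 1884, and adult females from 1219 to 1914 CPM with a median of 1476. This difference of 0.40 (SE 0.10, edgeR adjusted p = 0.00509) stayed under the fold threshold. In fetal liver the log2 (male/female) was -0.15 (SE 0.13), and the sex difference in adult minus fetal liver was 0.60 (SE 0.17, interaction adjusted p = 0.00626).

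Lcn2 (chromosome 2, 32384633 to 32388252, minus strand) encodes a secreted lipocalin that is also stored in the granules of neutrophils. It was abundant in fetal liver, from 112 to 256 CPM with a median of 180, and near the floor in adult liver, from 0 to 19.3 CPM with a median of 1.73. The log2 (adult/fetal) was -5.75 (SE 0.19, edgeR adjusted p = 1.06e-31), the largest fall of the 10. The 10 neutrophil granule genes moved in the same direction, from 2021 to 3976 CPM in fetal livers to at most 8.08 CPM in adult livers. Within fetal liver, Lcn2 and the sum of these genes were correlated after centring each sex (Pearson r = 0.969, Spearman rho = 0.950, n = 24, permutation p = 1e-05 for both, the smallest that 100000 permutations can give, adjusted p = 0.00012 and 6e-05 over 12 relations). The value of r was 0.981 without the 2 livers farthest from the median and 0.961 without livers 14, 21 and 22.

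Of the other 5 members tested in fetal liver, Hp (r = 0.786, rho = 0.856) and Apcs (r = 0.561, rho = 0.705) were also correlated with the neutrophil sum in these permutation tests over 24 livers (adjusted p of rho = 6e-05 and 0.00108). For Apcs this held for rho but not for r without livers 14, 21 and 22 (r = 0.481, adjusted p = 0.0741, and adjusted p of rho = 0.0157). For Orm1 r was 0.525 (permutation, adjusted p = 0.0288) and rho 0.432 (adjusted p = 0.0837). Saa3 (rho = 0.235) and Saa4 (rho = -0.063) did not pass. With the sum of 8 hepatocyte markers Hp was correlated by both measures (r = 0.623, rho = 0.565, permutation, adjusted p of rho = 0.0154), as was Lcn2 (r = 0.470, rho = 0.482, adjusted p of rho = 0.0405), the latter no longer without livers 14, 21 and 22 (adjusted p of rho = 0.169). Apcs passed with the hepatocyte sum by r (0.467, permutation, adjusted p = 0.0493) but not by rho (0.413, adjusted p = 0.0837), and not by r without the 3 livers (adjusted p = 0.0863). All of these are shares of the same libraries, and these 12 relations were chosen after the levels had been seen. The share of all genes that would pass with either sum was not computed, so the relations have no background beside them. What part neutrophils had in the fetal level of Lcn2 was not tested.

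**Figure D3:**
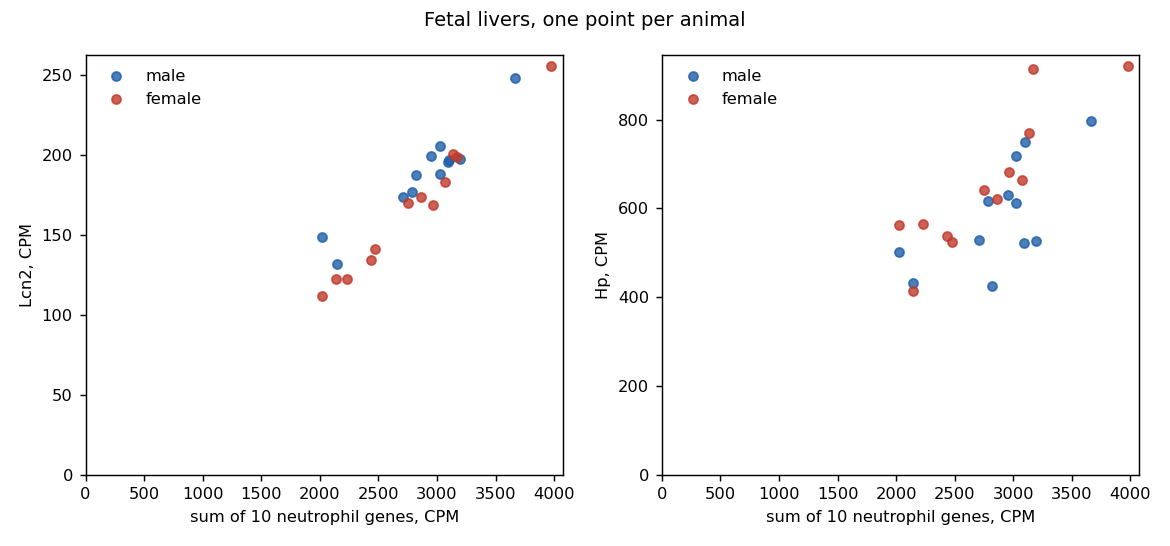
Lcn2 (left) and Hp (right), in CPM, against the sum of 10 neutrophil granule genes in CPM, 1 point for each of the 24 fetal livers (blue male, red female), on linear axes that start at 0. Lcn2 rises from 112 to 256 CPM nearly along a line as the neutrophil sum goes from 2021 to 3976 CPM, and Hp scatters more widely.

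In adult liver Lcn2 did not pass the filter. Females held 1.28 to 3.57 CPM with a median of 2.73. Males held 0 to 2.94 CPM, with male 11 apart at 19.3 CPM, and had a median of 0.868. Fits without the filter gave a log2 (male/female) of -0.44 (SE 0.55, adjusted p = 0.631) with edgeR and -1.39 (SE 0.34, adjusted p = 0.000462) with DESeq2, so the tools disagree on this gene.

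Apcs (chromosome 1, 172893961 to 172895041, minus strand) was the member with separate ranges between adult males and females. Males ran from 29.7 to 70.9 CPM with a median of 51.9, and females from 82.3 to 179 CPM with a median of 124. Separate ranges were found for 1.45% of the genes tested in that direction and for 1.35% with males higher. The log2 (male/female) was -1.34 (SE 0.14, edgeR adjusted p = 2.87e-08). Fetal livers of both sexes held more, from 110 to 329 CPM with a median of 243, and did not differ by sex beyond their spread (log2 0.05, SE 0.15). The sex difference in adult minus fetal liver was therefore itself large, at -1.35 (SE 0.21, interaction adjusted p = 3.56e-06). Against fetal livers, adult liver was lower by a log2 of -0.95 (SE 0.15, edgeR adjusted p = 9.72e-08), which was -1.68 (SE 0.16) among males and -0.32 (SE 0.14, adjusted p = 0.0380) among females, the latter under the fold threshold. The window upstream of Apcs, chr1:172895055-172895304 on the minus strand, is shown because it was the only one of 8 member windows without a C/EBP match and the only one with a STAT match, which began 244 bases before the start.
Apcs: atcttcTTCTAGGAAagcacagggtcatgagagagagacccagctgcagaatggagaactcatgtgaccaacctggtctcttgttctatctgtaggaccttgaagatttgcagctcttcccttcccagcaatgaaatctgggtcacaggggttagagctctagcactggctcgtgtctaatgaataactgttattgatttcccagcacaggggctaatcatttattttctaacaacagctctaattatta
Windows for Orm1 and Hp were not used here.

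Variation between animals of one sex differed widely among the 10 genes. The standard deviation of log2(CPM + 0.5) within sex was 0.91 for Saa1, 1.00 for Saa2, 0.78 for Orm2, 1.01 for Orm3 and 0.96 for Lcn2, each above that of at least 99.1% of the genes tested, whose median was 0.25. Orm1 (0.24) and Hp (0.26) were near that median, and Apcs (0.36), Saa4 (0.38) and Saa3 (0.53) lay between. For the low transcripts this spread includes counting error. It was wider in males than in females for all 10 genes, for example 1.22 against 0.42 for Saa1 and 1.03 against 0.38 for Orm2. Much of this came from male 11: without that liver the standard deviation among males was 0.82 for Saa1, 0.77 for Saa2 (1.25 with it), 0.58 for Orm2 and 0.67 for Lcn2 (1.30 with it), and 8 of the 10 genes were wider in males. Hp (0.15 against 0.17 in females) and Apcs (both 0.35) were not. The share of all genes tested that were wider in males was not computed, so these counts are not a trait of the members. The median spread of the 10 genes within sex was 0.65 with that liver and 0.46 without it.

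Male 11 was the highest of the 12 adult males for all 10 members. It was the highest male for 11.2% of the 10372 genes tested. Its values were 245 CPM of Saa1 (next male 73.6), 110 CPM of Saa2 (next 21.4), 54.1 CPM of Orm2 (next 10.7), 19.3 CPM of Lcn2 (next 2.94) and 3611 CPM of Hp (next 2099). Among 20 other positive acute phase genes tested, 16 were highest in this liver, with 6671 CPM of the fibrinogen chain Fga against 3683 to 5181 in the other males, 201 CPM of the lipopolysaccharide binding protein Lbp against 50.03 to 91.8, and 799 CPM of the metalloreductase Steap4 against 145 to 501. Of 9 negative acute phase genes, the transferrin gene Trf was highest there (13485 CPM against 11232 to 13111), the corticosteroid binding globulin Serpina6 was lowest (58.4 CPM against 72.9 to 168), and the other 7 lay within the range of the other males. Female 18 was the highest of the 12 females for 12 of these 20 positive genes and for Saa1 and Hp, beside 9.81% of all genes. Among the members it was also the lowest female for Saa4 (85.3 CPM), Orm1 (501 CPM) and Orm3 (1.97 CPM). The 10 neutrophil granule genes had 13 reads in the library of male 11, 8.08 CPM against 0 to 5.59 in the other males, with 7 of the 10 at 0. The 7 macrophage and Kupffer cell markers summed to 627.8 CPM there against 340.3 to 518.7 in the other males, 6 of them being highest in male 11, and their part in the levels of the members was not tested. The library was among the shallowest, with 1608848 reads. Males 6 and 9 shared the high Saa1 (73.6 and 68.1 CPM) and Saa4 (298 and 281 CPM), but their Hp (1974 and 1995 CPM) lay within the range of the rest.

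**Figure D4:**
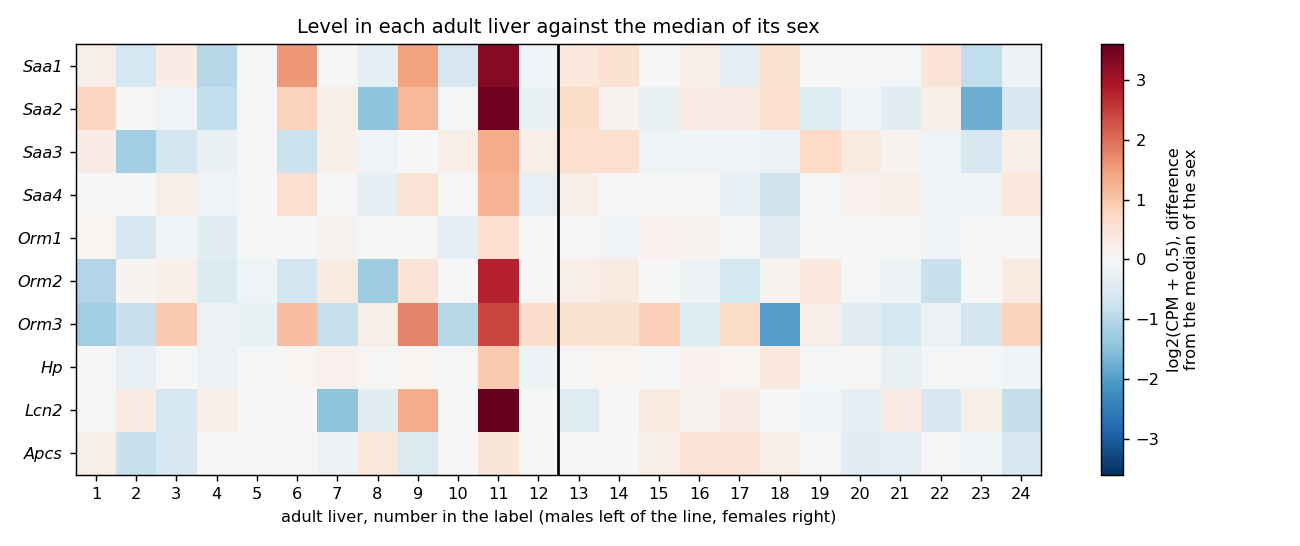
Level of the 10 transcripts in each adult liver as the difference of log2(CPM + 0.5) from the median of its sex (red higher, blue lower), with males left and females right of the line. The column of male 11 is red for all 10 genes, whereas no female column is.

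Across the 24 adult livers, 28 pairs of the 8 members that passed the filter were correlated after centring each sex, and 6 pairs passed (Spearman, two-sided permutation within sex, adjusted p under 0.05), all of them positive. Saa1 and Saa2 had the closest relation (r = 0.888, permutation p = 1e-05, rho = 0.823, p = 2e-05, adjusted p of rho = 0.00056), and r was 0.763 without the 2 livers farthest from the median, males 11 and 6. In males alone r was 0.910 and rho 0.762 (permutation, adjusted p of rho = 0.0266). In females alone r was 0.830 and rho 0.643, which did not pass (permutation, adjusted p of rho = 0.177). Saa1 and Hp (r = 0.803, rho = 0.671, permutation, adjusted p of rho = 0.00663) and Saa2 and Hp (r = 0.781, rho = 0.718, adjusted p of rho = 0.0028) also passed. These 3 pairs remained past the threshold without male 11, at rho = 0.735, 0.600 and 0.616. The other 3, Saa1 with Saa4 (rho = 0.581), Saa4 with Orm1 (0.563) and Saa4 with Orm3 (0.591), did not (rho = 0.425, 0.450 and 0.467). In females alone 1 pair passed, Saa2 with Hp (rho = 0.832, permutation, adjusted p of rho = 0.0406), and the rho of Saa1 with Saa4 was -0.154 there. Between Orm2 and Apcs, both higher in females, rho within sex was -0.371 (permutation, adjusted p = 0.159).

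**Figure D5:**
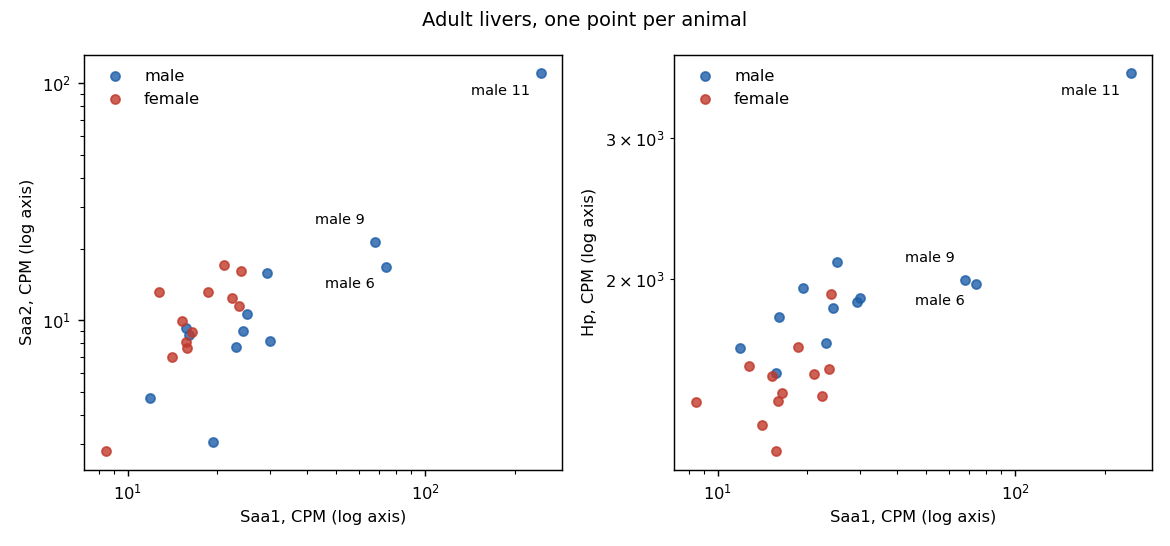
Saa2 (left) and Hp (right) against Saa1 in CPM, on log axes, 1 point for each of the 24 adult livers (blue male, red female). Male 11 is at the upper right of both panels, and the remaining livers follow the same direction with more scatter for Hp.

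The 10 other genes whose ranks followed the sum of Saa1 and Saa2 most closely, among 9889 with a mean of at least 5 CPM, were Hnf4a, Dnaja1, Plrg1, Eif1a, Uap1, Aimp2, Steap4, Ripk1, Chordc1 and Psmd4. Spearman's rho over 24 livers, centred by sex, was 0.826 for the hepatocyte transcription factor Hnf4a, 0.817 for the co-chaperone Dnaja1, and at least 0.737 for the other 8, against a median of -0.006 over all 9889. Without male 11 the value for Hnf4a was 0.811 and that for Dnaja1 0.831. In 6 of these genes the highest male was number 9, in 2 number 6 and in 2 number 11. These are descriptions over a shared set of libraries, with no test.

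Other genes of the pathway are summarised from lists chosen with earlier results of these data known. Of 25 further positive acute phase genes 24 were in the count files, all of which passed the filter across the livers, and 18 were higher in adult and 6 in fetal liver, with a median log2 of 1.25 beside -0.05 for all genes, of which 31.8% were called higher in adult and 35.3% in fetal liver. The protease inhibitor A2m was the extreme case, at 0.195 ± 0.253 CPM in adult and 2552 ± 584 CPM in fetal liver (mean ± SD, n = 24 each). The haem scavenger Hpx had the opposite pattern (3021 ± 608 against 664 ± 72.5 CPM, log2 2.75, SE 0.06, edgeR adjusted p = 3.54e-42). Between adult males and females 2 of 20 tested were higher in males (Lrg1 and Steap4) and 5 in females (Serpina3m, C3, Fgl1, Hamp and Mt1), with a median log2 of -0.19 beside -0.0010 for all genes, of which 3.01% were called higher in males and 6.49% in females. Complement C3 stood at 6216 ± 613 CPM in males and 10178 ± 862 CPM in females (n = 12 each). In fetal liver none of 23 was called (edgeR).

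Among 9 negative acute phase genes, 5 were higher in adult liver (Alb, Ttr, Apoa1, Rbp4 and Igf1), 1 in fetal liver (Serpina6) and 3 were not called, with a median log2 of 0.94, beside the same 31.8% and 35.3% of all genes. In adult liver 1 was higher in males (Serpina1e) and 2 in females (Serpina6 and the fetuin gene Ahsg), beside 3.01% and 6.49% of all genes, and 6 were not called. Of 24 receptors and signal transducers of the response, 17 were higher in adult liver, 1 (Jak2) in fetal liver and 6 were not called, with a median log2 of 0.67, again beside 31.8% and 35.3%. The interleukin-1 receptor accessory protein Il1rap was at 167 ± 41.7 CPM in adult and 22.7 ± 4.60 CPM in fetal liver (n = 24 each). Adult males were higher for 6 of the 24 (Socs3, Il1r1, Il1rap, Cebpb, Cebpd and Junb), females for 0, beside 3.01% and 6.49% of all genes, and the median was 0.16. The C/EBP factor Cebpb stood at 93.7 ± 42.6 CPM in males and 49.1 ± 14.9 CPM in females (n = 12 each). In fetal liver 0 of these 24 and 0 of the 9 negative genes were called (edgeR).

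Cytokines themselves were scarce. Of 8, 4 passed the filter across the livers, where Il1b and Cxcl1 were higher in adult liver, Osm was higher in fetal liver and Il1a was not called. Here and for the next list, 31.8% of all genes were called higher in adult and 35.3% in fetal liver. Cxcl1 varied widely, at 12.6 ± 28.5 CPM in adult and 2.21 ± 1.33 CPM in fetal liver (n = 24 each). Il1a was the only one tested in adult liver by sex, and was not called. Of 9 receptors and partners of the members, 3 were higher in adult liver (Lrp1, Hpx and Cd163, the macrophage receptor for haptoglobin with haemoglobin, at 36.3 ± 9.41 against 4.82 ± 0.995 CPM) and 5 in fetal liver (the lipocalin receptor gene Slc22a17, Fpr2, Tlr2, Hmox1 and Mmp9, whose protein binds lipocalin 2). Mmp9 fell from 45.0 ± 12.7 CPM in fetal to 0.632 ± 0.538 CPM in adult liver (n = 24 each). None of 6 tested differed between adult males and females (edgeR), beside 9.5% of all genes. In fetal liver, of 9 tested, Lrp1 was called higher in males and Slc22a17 higher in females, beside 3.81% and 0.828% of all genes. With the share of reads outside genes as a covariate, that comparison called 9 genes in all. Whether Lrp1 and Slc22a17 were among them is not reported here.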

How the data were processed

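RNA of whole fetal and adult livers and of ES cells was made into libraries with a stranded total RNA kit, and single embryos were amplified with a single-cell protocol, so embryo levels are given beside the rest without a test. Per the submitters' processing notes and the paper's methods, the authors aligned reads to mm10 with TopHat2 2.0.4 and Bowtie2 2.1.0, removed duplicates with Picard and assigned reads to genes with HTSeq. They deposited raw counts per gene, with no normalization. Removing duplicates can lower the counts of short, abundant transcripts, and reads that match more than 1 place are not counted. The alignments set aside as not unique came to 18.7% to 61.1% of each library as HTSeq tallied it. The strand setting and version of HTSeq are not given in the sources used here.

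Here CPM were computed from the counts of genes. Sexes were compared within each stage with edgeR 4.0.16 in R 4.3.3 (TMM, filterByExpr, robust quasi-likelihood fit, two-sided F test), adult with fetal liver in the same way with sex as a covariate, and the interaction over the 48 livers. Benjamini-Hochberg adjustment ran over all genes tested. A gene was called at an adjusted p under 0.1 and an absolute log2 above 0.5, and for the interaction at an adjusted p under 0.1 alone. Standard errors are the absolute log2 over the square root of F. Spread and correlations used log2(CPM + 0.5) with TMM factors, centred by sex, and 100000 permutations within sex. P-values measure the spread between animals, lines or embryos as labelled. Transcript lengths, positions and 50-base windows came from GENCODE vM21 (GRCm38) and upstream windows from RefSeq (GRCm38.p6), which matched 8 of the 10 members. The scripts were tested on simulated counts.

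Every member is reported for each comparison. The members and the gene lists were chosen with earlier results of these data known. Beyond them, the rule named at most 4 genes of each list per comparison, by smallest adjusted p, and the 10 genes most like Saa1 and Saa2. Other list genes given by name, and the list genes given for male 11, were picked after their values were seen. Alternatives were DESeq2 1.42.0, other scalings, no filter, no fold threshold, the share of reads outside genes as a covariate, subsets of livers and leaving out single samples. Leaving out fetal livers 14, 21 and 22, spread and correlations without male 11, and the relations with marker sums were chosen after seeing the data.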

Additional observations from a re-analysis of the deposited data

Results flagged for a closer look

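In the eight-cell embryos 1 embryo stood apart from the other 5 of its sex for Saa2 (female 10, 3.90 CPM), Hp (male 4, 3.24 CPM), Lcn2 (female 11, 2.01 CPM) and Saa3 (female 8, 1.09 CPM, and male 6, 0.150 CPM). In each case the other 5 embryos had 0 reads, so any read at all meets Dixon's criterion, and the value of male 6 is a single read. The groups were examined because they held reads of a member, so that meeting the criterion, which chance meets in about 1 in 20 groups, is no sign of an excess here.

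The sex difference differed between adult and fetal liver by the edgeR interaction test for Saa4 (log2 difference 0.66, SE 0.17, adjusted p = 0.00291), Hp (0.60, SE 0.17, adjusted p = 0.00626) and Apcs (-1.35, SE 0.21, adjusted p = 3.56e-06). This test called 33.6% of the 13026 genes, so the number of members called is no excess. For Apcs every adult female was above every adult male, and in fetal liver the ranges of the sexes overlapped. Reads outside genes did not overlap between the sexes in fetal liver, and their part in these differences was not tested.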

How the results depend on the processing

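The calls of all 10 members between adult and fetal liver held under every alternative that tested them, except that Apcs missed the fold threshold in females alone and that 1 gene failed the filter in each sex alone. Leaving out single livers kept 10 of 10 called (8731 to 8838 genes called in all). For adult sex differences, 5 members stayed called (933 to 1055 genes in all). In fetal liver 0 to 1 member was called (481 to 655 genes), the 1 being Saa3 without male 3, male 7 or female 24. Without single ES lines 0 to 1 member and 0 to 3070 genes were called.

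Calls over all genes moved by more than 1.5 times with no fold threshold (3399 in adult and 4807 in fetal liver against 985 and 600), without the filter (1518 and 1057), with reads outside genes as a covariate (9 in fetal liver) and with DESeq2 in embryos (80 against 24). Among members, fetal sex gave 1 call with no fold threshold, 2 without the filter (Saa1 and Saa2, with 16 of 17 and 12 of 15 fetal reads in female 22) and 1 without livers 14, 21 and 22. DESeq2 called 5 members for the interaction against 3, adding Saa1 and Saa2. Library size alone split the stage calls 2419 to 7022 against 4148 to 4602.

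Directions turned for values that were not called: Saa2 by sex in adult liver (-0.025 with DESeq2, and -0.071 to 0.72 without single livers, negative without male 11 alone), in fetal liver by sex Saa4 (-0.11), Orm1 (0.77) and Hp (0.066) with the covariate and Orm1 (0.050) without livers 14, 21 and 22, and the interaction of Orm1 (-0.0066 with DESeq2, -0.013 with its size factors, -0.039 with library size). The rho of Saa1 with Saa4 was -0.154 in females. Correlated pairs numbered 1 in females and 3 without male 11, against 6. The median spread of the members was 0.52 with a pseudocount of 2 and 0.46 without male 11, against 0.65. The causes were not tested.

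Fetal and adult livers share numbers in their labels, but same-numbered livers did not deviate together (24 correlations from -0.0872 to 0.0454, 1 liver best with its own number). A replicate block gave 8753 genes called against 8750, and the same 7 and 3 members. Depth limits Lcn2, Saa3 and Orm3 in adult males and every member in embryos.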
